A study of Mus musculus with 20 samples.

Results

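The acute phase proteins considered here were 10 secreted proteins, Saa1, Saa2, Saa3, Saa4, Orm1, Orm2, Hp, Lcn2, Apcs and Itih4, taken by gene symbol from the 50559 genes of the count tables. All 10 passed the filter on low counts. RNA was sequenced from 20 mice, 5 per group, in Aldafermin+MYC, FGF19+MYC and sgTrp53+MYC tumors and in livers without tumors. All mice were young female C57BL/6J animals labelled C57Bl6J;WT. Tumors were raised by hydrodynamic gene transfer (HGT), the rapid injection of plasmids into the tail vein, with the SB100X transposase inserting the plasmids into the genome of hepatocytes. Aldafermin is an engineered analog of the hormone FGF19 whose N-terminal receptor-binding end was changed. It was expressed together with MYC from plasmids, as was FGF19 itself, and in the remaining tumors MYC was combined with a CRISPR guide against Trp53. The livers are labelled non treated, whereas the study describes its control mice as receiving an RFP plasmid by the same injection, so the injection they had is uncertain. The treatment field of the sgTrp53+MYC libraries reads none, and their group comes from the titles. The sgTrp53+MYC libraries were alone in a second table, with 5.34 to 6.82% of reads unaligned against 15.3 to 34.0% in the other libraries, so this table and this genotype cannot be told apart. The comparisons asked how a readout of hepatocyte and inflammatory gene expression differed between tumors driven by the hormone, by its analog and by p53 loss, and between each tumor type and liver.

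Acute phase proteins are plasma proteins that hepatocytes make at altered rates during infection, injury or cancer. Interleukin-6 acting through STAT3, interleukin-1 and TNF acting through NF-kappaB, and the C/EBP transcription factors are the classical inducers of their genes, and glucocorticoids add to the response. Saa1 and Saa2 are the inducible serum amyloid A proteins of high density lipoprotein, Saa4 is the constitutive one, and Saa3 is made largely outside hepatocytes, by macrophages, adipocytes and epithelia. Orm1 and Orm2 are the orosomucoids, which carry drugs and steroids. Hp is haptoglobin, which binds free hemoglobin, and Lcn2 is lipocalin 2, which withholds iron-loaded siderophores from bacteria. Apcs is serum amyloid P component, the pentraxin that is the major acute phase reactant of the mouse, and Itih4 is an inter-alpha-trypsin inhibitor heavy chain.

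The 4 Saa genes lie within one cluster on chromosome 7 (mouse build GRCm39, GENCODE M39): Saa3 at chr7:46361422-46365576, Saa4 at chr7:46377406-46382035 and Saa1 at chr7:46389916-46392547 on the minus strand, and Saa2 at chr7:46401214-46403737 on the plus strand, head to head with Saa1. Orm1 (chr4:63261052-63272189) and Orm2 (chr4:63280686-63284115) are neighbors on chromosome 4, with the relative Orm3 between them. The Saa promoters are shown because the members of the cluster behaved differently in tumors. Saa1, Saa2 and Saa4 were lower than in liver, and Saa3 was higher. Between tumors, Saa1 and Saa2 moved together and Saa4 varied little. Each sequence spans the start of the RefSeq gene, most of it upstream of that start, 5′ to 3′ on the gene's own strand. It was placed on GRCm39 by its single exact match. The RefSeq and GENCODE starts differ. By the GENCODE positions above, the Saa3 sequence lies wholly inside the gene, and so does most of the Saa1 sequence. Capitals mark matches to the C/EBP motif TTNNGNAA on either strand.
Saa1 (chr7:46392355-46392654, minus strand): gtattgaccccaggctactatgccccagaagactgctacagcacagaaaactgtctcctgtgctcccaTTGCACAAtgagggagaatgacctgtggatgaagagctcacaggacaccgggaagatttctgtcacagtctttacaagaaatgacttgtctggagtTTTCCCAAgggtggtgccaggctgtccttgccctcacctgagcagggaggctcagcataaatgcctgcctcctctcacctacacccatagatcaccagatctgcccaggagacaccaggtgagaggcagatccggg
Saa2 (chr7:46401007-46401306, plus strand): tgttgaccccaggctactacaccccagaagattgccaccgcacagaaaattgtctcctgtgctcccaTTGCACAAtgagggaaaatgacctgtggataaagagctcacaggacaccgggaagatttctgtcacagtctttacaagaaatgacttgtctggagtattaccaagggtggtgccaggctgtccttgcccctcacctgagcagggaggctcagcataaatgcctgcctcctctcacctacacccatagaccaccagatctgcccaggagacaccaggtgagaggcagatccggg
Saa3 (chr7:46365051-46365350, minus strand): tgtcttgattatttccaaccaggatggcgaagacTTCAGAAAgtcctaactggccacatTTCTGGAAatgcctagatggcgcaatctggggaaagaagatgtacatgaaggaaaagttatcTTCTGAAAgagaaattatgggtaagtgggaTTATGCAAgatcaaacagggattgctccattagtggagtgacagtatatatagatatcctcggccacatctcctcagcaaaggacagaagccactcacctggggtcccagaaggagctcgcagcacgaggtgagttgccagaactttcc
Saa4 (chr7:46381978-46382277, minus strand): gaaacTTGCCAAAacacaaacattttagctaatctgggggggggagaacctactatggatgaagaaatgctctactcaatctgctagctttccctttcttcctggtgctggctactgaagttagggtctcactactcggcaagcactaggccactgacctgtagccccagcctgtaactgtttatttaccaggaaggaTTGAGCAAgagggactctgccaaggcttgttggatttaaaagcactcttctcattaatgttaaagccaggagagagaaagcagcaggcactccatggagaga
Promoters were given for 8 of the members and not for Hp and Orm1. The C/EBP motif was found in 6 of these 8 (Saa1, Saa2, Saa3, Saa4, Orm2 and Lcn2) and in 40.7% of 32544 distinct mouse promoters of the same window. Saa1 and Saa2 shared a match, starting 182 and 183 bases before the RefSeq gene start, and Saa3 carried 4 matches. By GENCODE, the windows of Saa3 and Lcn2 lie wholly inside the gene, so their matches need not be upstream of its start. The kappaB motif GGANTTTCC, present in 1.26% of promoters, was in 0 of the 8. A motif this rare would seldom be met among 8 promoters, so its absence says little. Other spellings of a kappaB site were not searched. The STAT motif TTCNNNGAA, present in 8.33%, was in Apcs and Itih4, and the type II IL-6 element CTGGGAA, present in 11%, was in Apcs alone among the 8. TATAAA, present in 13.6%, was in Orm2 and Itih4, and the glucocorticoid element TGTTCT, present in 18.9%, was in Apcs and Orm2. All motifs were searched on both strands, and in the Orm2 promoter the same C/EBP letters matched on both strands. These are matches of letters in a short window and not binding sites.

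Counts summed to between 18004977 and 66354724 per library, with the sgTrp53+MYC tumors the deepest at 54042455 to 66354724. Levels below are CPM, a gene's counts relative to its library's total as scaled by edgeR's TMM factors, in the order of replicates 1 to 5 as titled, and a fold change is a log2 difference from edgeR's quasi-likelihood fit of all 4 groups with its standard error (SE) and Benjamini-Hochberg adjusted p. Trp53 mRNA averaged 46.7 ± 22.5 CPM in the sgTrp53+MYC tumors and 138 ± 32.4 and 139 ± 17.8 in the Aldafermin+MYC and FGF19+MYC tumors (SD, n = 5 each), and 32.7 ± 2.97 in livers. The summed level of 9 hepatocyte markers was 178333 to 210069 CPM in livers and 3602 to 23243 CPM in tumors, with none of the 9 at the floor of 3 counts, and the 5 proliferation markers summed to 626 to 1066 CPM in tumors against 7.30 to 25.3 in livers. In tissue of mixed cells, fewer cells of a type and less RNA per cell cannot be told apart.

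Against livers, transcripts of the hepatocyte acute phase proteins were lower in every tumor type and that of Saa3 was higher. In Aldafermin+MYC tumors all 10 members passed the test, 8 lower and 2 higher (Saa3 and Lcn2), beside 70.3% of all genes tested. In FGF19+MYC tumors 8 passed, all lower (69.7% of all genes), and in sgTrp53+MYC tumors 6 were lower and Saa3 was higher (69.9% of all genes). In that last comparison DESeq2 and the likelihood ratio test called 8 members, Orm2 among them, and a fit of only the 2 groups called all 10, 8 lower and 2 higher. Most genes differed between tumor and liver, so the share of members called says little by itself. Genes called lower were 31.9, 32.9 and 33.0% of all tested in the 3 comparisons, and genes called higher were 38.4% for Aldafermin+MYC and 36.9% for sgTrp53+MYC. The members' median log2 fold change was −2.96, −3.41 and −2.60 for Aldafermin+MYC, FGF19+MYC and sgTrp53+MYC, where the median over all genes was 0.13, 0.06 and 0.07. The 3 comparisons share the same 5 livers. In 9 of 10 members the tumors and livers did not overlap, in each of the 3 comparisons, where 58.8, 62.5 and 56.2% of all genes did not overlap.

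**Figure D1:**
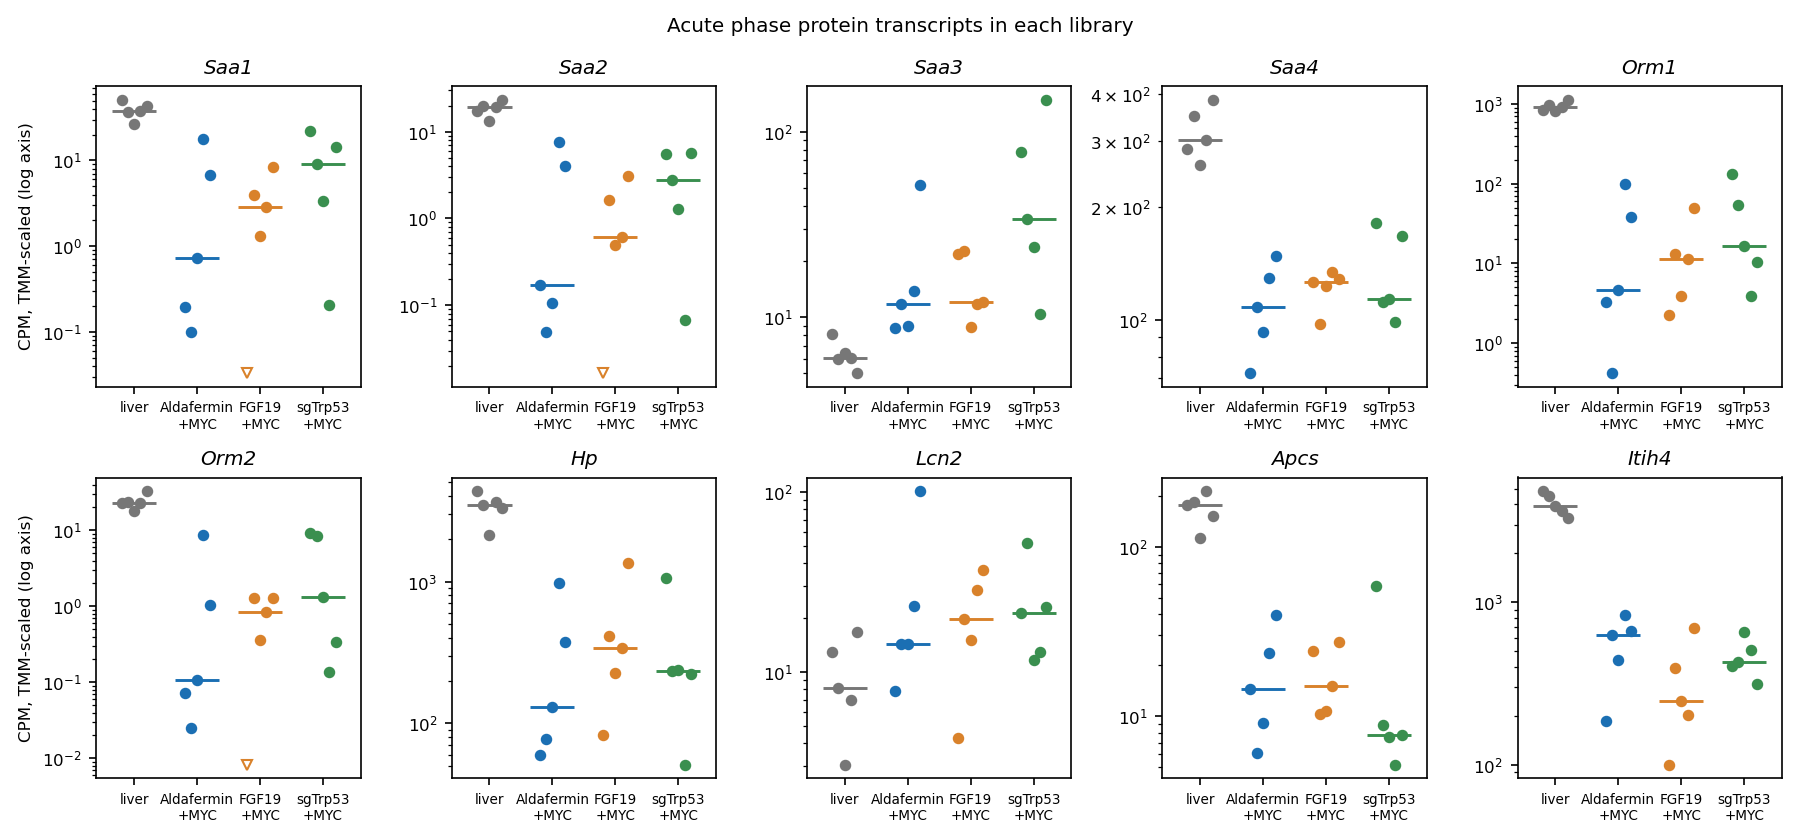
Level of each acute phase protein transcript in CPM (TMM-scaled, log axis, a separate range per gene) in the 5 libraries of each group, with points from left to right in replicate order, the group median as a line, and open triangles for the FGF19+MYC library with 0 counts drawn below the scale. Saa1, Saa2, Saa4, Orm1, Orm2, Hp, Apcs and Itih4 were lower in all 15 tumors than in any liver, and Saa3 was higher in all 15. The tumors spread more widely than the livers for most members, among them Saa1, Saa2, Saa3, Orm1, Orm2, Hp and Apcs.

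The inducible serum amyloids approached the liver level in some tumors and were nearly absent in others. Saa1 was 51.1, 36.9, 26.8, 38.0 and 43.5 CPM in the livers. It was 0.194, 0.0991, 0.719, 17.7 and 6.81 CPM in the Aldafermin+MYC tumors, 0, 3.93, 1.30, 2.87 and 8.42 in the FGF19+MYC tumors, and 22.1, 9.11, 3.35, 0.204 and 14.4 in the sgTrp53+MYC tumors. Every tumor was below every liver, and the Aldafermin+MYC tumors differed from each other by up to 178-fold. The FGF19+MYC tumor at 0 CPM allows up to 3 counts, or 0.167 CPM, by counting error alone. The log2 fold change against liver was −2.96 (SE 1.17, adjusted p = 0.0297) for Aldafermin+MYC and −3.55 (SE 1.2, adjusted p = 0.0129) for FGF19+MYC. For sgTrp53+MYC it was −2.0 (SE 1.12, adjusted p = 0.117), which did not pass although the groups did not overlap. Without Aldafermin+MYC replicate 1, 2 or 3 the Saa1 call in that group was lost, with an adjusted p of 0.0556, 0.0513 and 0.0615, as it was with library totals in place of TMM factors (−2.10, adjusted p = 0.100).

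Saa2 followed Saa1. It was 13.4 to 23.4 CPM in livers, and 0.170, 0.0495, 0.107, 7.64 and 4.03 CPM in the Aldafermin+MYC tumors, 0, 1.64, 0.493, 0.615 and 3.12 in the FGF19+MYC tumors, and 5.53, 2.78, 1.30, 0.0680 and 5.73 in the sgTrp53+MYC tumors. The same tumors were high and low as for Saa1. The log2 fold change against liver was −2.96 (SE 1.14, adjusted p = 0.0263), −3.95 (SE 1.2, adjusted p = 0.00658) and −2.59 (SE 1.11, adjusted p = 0.0450) in the 3 tumor types. The first was lost without Aldafermin+MYC replicate 1 (adjusted p = 0.0532) and with library totals in place of TMM factors (adjusted p = 0.0909). The last was lost without any 1 of 8 libraries, at an adjusted p of up to 0.0881 without sgTrp53+MYC replicate 3. The 2 transcripts were 93.9% identical over 655 aligned bases, with a longest shared run of 76 bases, and 0 of the 150-base windows of either canonical transcript was found in another gene, so reads of the sequenced length can be told apart where they are full length. Whether shorter shared stretches left reads unassigned was not tested.

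Saa4 was steady. It was 285, 349, 258, 301 and 386 CPM in the livers, 72.2, 109, 92.9, 129 and 148 in the Aldafermin+MYC tumors, 127, 97.9, 123, 134 and 128 in the FGF19+MYC tumors, and 182, 112, 114, 98.7 and 167 in the sgTrp53+MYC tumors. All 15 tumors were below all livers, and the highest tumor was 2.52 times the lowest. Its log2 fold change was −1.52 (SE 0.20, adjusted p = 1.86e-06), −1.37 (SE 0.20, adjusted p = 6.35e-06) and −1.23 (SE 0.20, adjusted p = 2.10e-05), the smallest fall among the 8 lower members in each tumor type. When library totals replaced the TMM factors, the sgTrp53+MYC value became −0.36 (adjusted p = 0.0775).

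Saa3 went the other way. It was 8.09, 5.97, 6.44, 6.07 and 5.01 CPM in the livers, and 8.78, 11.8, 8.95, 13.9 and 51.8 CPM in the Aldafermin+MYC tumors. In FGF19+MYC tumors it was 21.8, 22.9, 8.87, 11.8 and 12.1 CPM, and in sgTrp53+MYC tumors 77.9, 33.7, 24, 10.5 and 149 CPM. Each of the 15 tumors exceeded each liver, and 4 of the 5 highest tumors were sgTrp53+MYC. Saa3 differed from liver by a log2 fold change of 3.22 in sgTrp53+MYC (SE 0.63, adjusted p = 0.000142), 1.59 in Aldafermin+MYC (SE 0.59, adjusted p = 0.0225) and 1.30 in FGF19+MYC (SE 0.59, adjusted p = 0.0578), the last not passing. That value passed in 6 of 10 other settings, among them DESeq2 (adjusted p = 0.0389) and the likelihood ratio test (adjusted p = 0.0338), over which its adjusted p ran from 0.00154 to 0.0703. Aldafermin+MYC replicate 5 carried much of that group's difference: without it the value was 0.85 (adjusted p = 0.154).

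The make-up of the Saa transcripts therefore differed between liver and tumor. Per kilobase of the canonical transcript (757 bases for Saa1, 652 for Saa2, 1007 for Saa3 and 2118 for Saa4), Saa3 was 1.77 to 3.47% of the Saa total in livers. It was 12.6 to 37.6% in Aldafermin+MYC tumors, 12.7 to 29.7% in FGF19+MYC tumors and 18.1 to 58.0% in sgTrp53+MYC tumors, so no tumor overlapped the livers. Saa1 and Saa2 together were 30.3 to 39.7% in livers, and 0.328 to 31.9%, 0 to 18% and 0.651 to 18.8% in the 3 tumor types. Saa4 was the largest share in every library except sgTrp53+MYC replicate 5, where Saa3 was, and it was 31.0 to 83.8% over the tumors. These shares are levels per length and would shift with another choice of transcript.

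**Figure D2:**
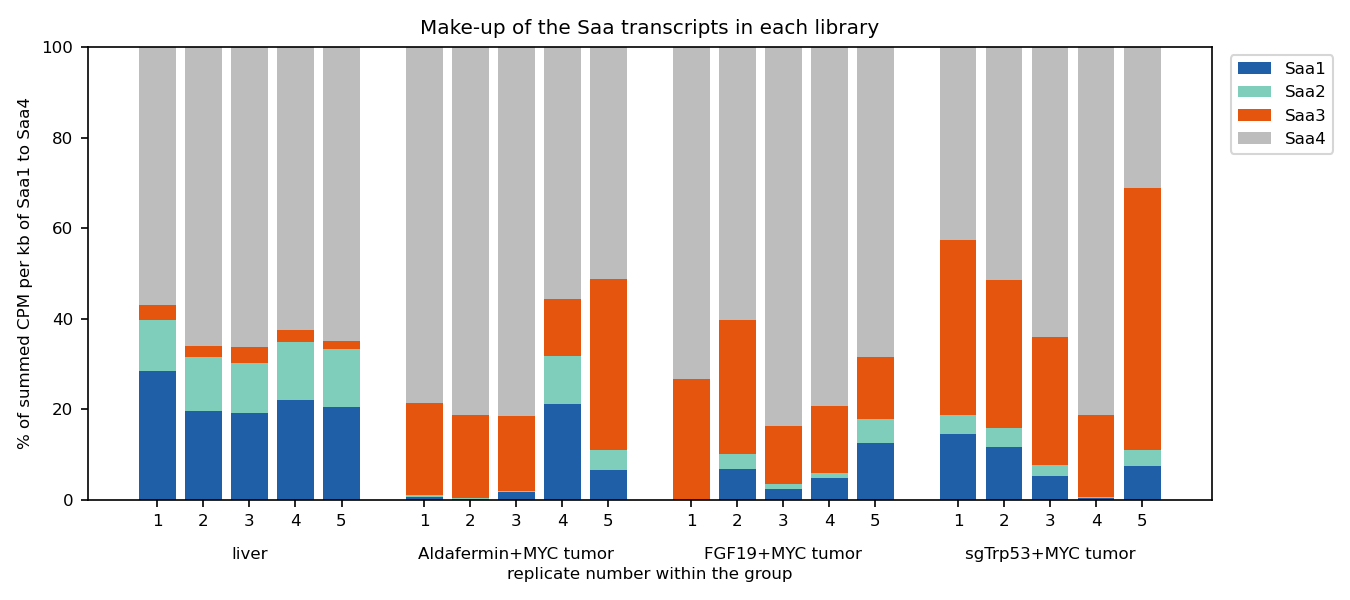
Share of each Saa gene in the summed CPM per kilobase of Saa1 to Saa4, stacked to 100% for each of the 20 libraries and grouped by condition. Saa3 rose from at most 3.47% of the total in a liver to between 12.6 and 58.0% in the tumors, and Saa1 with Saa2 made up at least 30.3% in every liver but in 1 of the 15 tumors only, Aldafermin+MYC replicate 4.

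Orm1 fell furthest of the 10 members in each tumor type, and both orosomucoids varied widely between tumors. Orm1 was 829, 964, 824, 916 and 1131 CPM in the livers, 3.32, 0.421, 4.64, 98.5 and 38.5 in the Aldafermin+MYC tumors, 2.23, 13.2, 3.85, 11.4 and 50.2 in the FGF19+MYC tumors, and 133, 54.4, 16.3, 3.89 and 10.4 in the sgTrp53+MYC tumors. The highest tumor was far below the lowest liver and 315 times the lowest tumor. Orm1 differed from liver by −5.01 (SE 1.25, adjusted p = 0.00145), −5.85 (SE 1.30, adjusted p = 0.000534) and −4.42 (SE 1.21, adjusted p = 0.00308), the largest of the 10 members in each tumor type. A library kit that keeps strand was used, and 15.6% of the Orm1 exon bases lie opposite the predicted gene Gm52743 on the other strand. Orm2 was 22.8, 23.3, 18.1, 22.8 and 32.7 CPM in the livers. It was 0.0728, 0.0248, 0.107, 8.64 and 1.04 CPM in the Aldafermin+MYC tumors, 0, 1.27, 0.358, 0.850 and 1.30 in the FGF19+MYC tumors, and 9.31, 8.45, 1.34, 0.136 and 0.337 in the sgTrp53+MYC tumors. In 3 tumors Orm2 rested on 3 counts or fewer. Its log2 fold change was −3.63 (SE 1.25, adjusted p = 0.0145), −4.94 (SE 1.34, adjusted p = 0.00299) and −2.61 (SE 1.18, adjusted p = 0.0560), the last not passing although no tumor overlapped a liver. Without sgTrp53+MYC replicate 1 or 2 that value was −3.22 and −3.11 and passed (adjusted p = 0.0357 and 0.0445). Orm1 and Orm2 transcripts were 91.0% identical over 775 bases.

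Haptoglobin was the most abundant member per kilobase by its mean in all 4 groups. Hp was 4339, 3495, 2141, 3651 and 3297 CPM in the livers, 59.9, 77.6, 131, 981 and 373 in the Aldafermin+MYC tumors, 82.1, 412, 225, 339 and 1351 in the FGF19+MYC tumors, and 1062, 233, 239, 51.1 and 221 in the sgTrp53+MYC tumors. In each group 1 tumor stood at 981 CPM or more while the rest were at 412 or below. Against liver, Hp differed by −3.38 (SE 0.87, adjusted p = 0.00184), −2.81 (SE 0.85, adjusted p = 0.00616) and −3.23 (SE 0.86, adjusted p = 0.00252). Hp and Itih4 together made up 78.6 to 86.7% of the counts on the 10 members in livers and 50.4 to 88.4% in tumors. All 10 members took 0.500 to 0.690% of a liver library and 0.0360 to 0.271% of a tumor library.

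Apcs and Itih4 fell by similar amounts in every tumor type. Apcs was 177, 183, 113, 213 and 153 CPM in the livers, 14.4, 6.07, 9.14, 23.8 and 39.5 in the Aldafermin+MYC tumors, 24.2, 10.3, 10.8, 15 and 27.3 in the FGF19+MYC tumors, and 58.4, 8.93, 7.55, 5.19 and 7.80 in the sgTrp53+MYC tumors. Apcs differed from liver by −3.17 (SE 0.64), −3.26 (SE 0.64) and −3.26 (SE 0.64), with an edgeR adjusted p of 0.000196, 0.000160 and 0.000153. Itih4 was 4817, 4489, 3927, 3611 and 3295 CPM in the livers, 186, 629, 440, 838 and 661 in the Aldafermin+MYC tumors, 99.9, 394, 246, 201 and 696 in the FGF19+MYC tumors, and 402, 429, 652, 508 and 315 in the sgTrp53+MYC tumors. Its log2 fold change was −2.87 (SE 0.43), −3.62 (SE 0.45) and −3.13 (SE 0.44), with an edgeR adjusted p of 8.89e-06, 7.26e-07 and 3.44e-06. All 15 tumors were below all livers for both genes, and these calls held under every alternative tried.

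Lcn2 tended upward, with overlap. It was 12.9, 8.16, 3.04, 6.95 and 16.6 CPM in the livers, 7.78, 14.2, 14.3, 23.1 and 101 in the Aldafermin+MYC tumors, 4.29, 19.6, 15.1, 28.5 and 36.7 in the FGF19+MYC tumors, and 21.1, 51.6, 11.6, 12.9 and 22.9 in the sgTrp53+MYC tumors. In 8 of 15 tumors it was above every liver, and it was the one member whose livers varied widely (5.45-fold). Its log2 fold change was 1.75 (SE 0.67, adjusted p = 0.0256), 1.13 (SE 0.66, adjusted p = 0.133) and 1.33 (SE 0.66, adjusted p = 0.0790). The Aldafermin+MYC value was 0.70 without replicate 5 (adjusted p = 0.260), the tumor that was also highest in that group for Saa3, and its call was also lost without liver replicate 2, 3 or 4, at an adjusted p of 0.0528, 0.0642 and 0.0557. Summed neutrophil markers were 2.98 to 34.9 CPM in tumors and 3.62 to 5.97 in livers, with 27.8 in Aldafermin+MYC replicate 5. They were also high in FGF19+MYC replicate 1 (24.8), the lowest tumor for Lcn2, and in sgTrp53+MYC replicate 4 (34.9), where Lcn2 was 12.9. Over the 15 tumors, with group means subtracted, the log2 sum had a Pearson r of 0.048 with Lcn2. The part of neutrophils in the Lcn2 level was not tested.

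**Figure D3:**
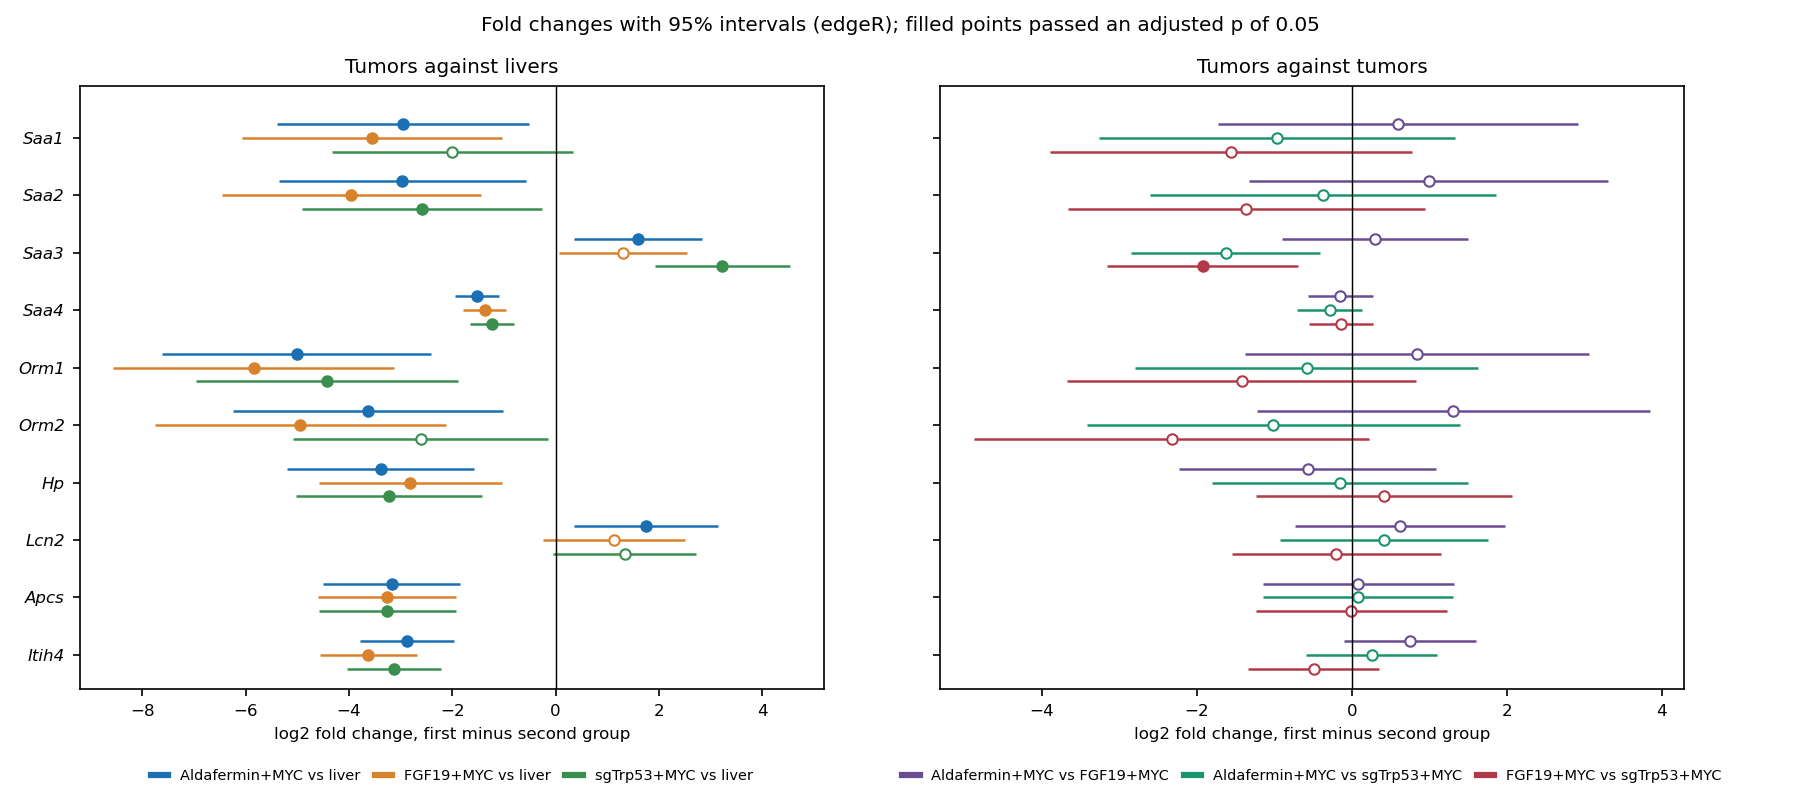
Log2 fold change of each member with its 95% interval from the edgeR fit, for the 3 tumor types against livers (left) and the 3 pairs of tumor types (right), with filled points for an adjusted p under the threshold of 0.05. Against livers 8 members lie to the left of 0 and Saa3 and Lcn2 to the right, and among tumor types only the Saa3 difference between FGF19+MYC and sgTrp53+MYC is filled.

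Between tumor types, few differences exceeded the spread. Aldafermin+MYC and FGF19+MYC tumors differed in 0 of the 10 members by the quasi-likelihood test, where 0.0% of all genes passed and 7.31% had an unadjusted p under 0.05. DESeq2 and edgeR's likelihood ratio test called 96 and 59 genes there and again 0 members, and 0 members had an unadjusted p under 0.05 in the main test. Itih4 came nearest, at an adjusted p of 0.763, with a log2 difference of 0.75 (95% interval −0.10 to 1.60). These intervals leave room for large differences. They ran from −1.73 to 2.92 for Saa1, −1.32 to 3.30 for Saa2, −1.39 to 3.06 for Orm1, −1.23 to 3.85 for Orm2, −2.23 to 1.09 for Hp and −0.74 to 1.97 for Lcn2. They were narrower for Saa3 (−0.90 to 1.5), Apcs (−1.15 to 1.32) and Saa4 (−0.56 to 0.27). Among the 10, the interval excluded a 2-fold difference in either direction for Saa4 only. Aldafermin+MYC replicate 4 set the sign for Saa1, Saa2, Orm1 and Orm2, which were 0.59, 0.99, 0.84 and 1.31 with it and −0.78, −0.14, −0.47 and −1.35 without it.

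Saa3 was higher in sgTrp53+MYC tumors than in FGF19+MYC tumors, by a mean of 58.9 ± 56.1 against 15.5 ± 6.41 CPM (SD, n = 5 each), although the groups overlapped. The log2 difference, FGF19+MYC minus sgTrp53+MYC, was −1.93 (SE 0.59, 95% interval −3.16 to −0.69, adjusted p = 0.0323), and it was the only member of 10 called, beside 15.8% of all genes called in either direction and 7.78% called lower. The call was lost without FGF19+MYC replicate 3, 4 or 5 (adjusted p = 0.0803, 0.0698 and 0.0731), without sgTrp53+MYC replicate 1 (adjusted p = 0.0501) and without replicate 5 of that group, the tumor at 149 CPM, where the difference was −1.24 (adjusted p = 0.140). With Aldafermin+MYC tumors the Saa3 difference was −1.63 (SE 0.58, adjusted p = 0.0586), and 0 of 10 members were called where 17.7% of all genes were. DESeq2 and the likelihood ratio test called Saa3 in that comparison too, at an adjusted p of 0.0174 and 0.0274. Leaving out Aldafermin+MYC replicate 5 made the Saa3 difference −2.50 (adjusted p = 0.00557). Without Aldafermin+MYC replicate 4 Orm2 passed there, at −3.67 (adjusted p = 0.0383), and without sgTrp53+MYC replicate 1 Apcs did, at 1.33 (adjusted p = 0.0359). Summed macrophage and Kupffer cell markers were 186 to 489 CPM in the sgTrp53+MYC tumors, where Saa3 was highest, and 380 to 1094 and 451 to 679 in Aldafermin+MYC and FGF19+MYC tumors, with overlap. Of the 10 markers, 5 and 4 were called higher in those groups than in sgTrp53+MYC and 0 were lower, where 17.7 and 15.8% of all genes were called in either direction. Of 7 adipocyte markers, Adipoq, Plin1, Cfd, Lep and Retn were at the floor of 3 counts in every tumor of all 3 types. The other 2 were expressed. Fabp4 averaged 49.3, 32.6 and 36.2 CPM in the 3 tumor types against 8.32 in livers and was called higher in all 3, and Cidec averaged 2.77, 1.57 and 2.78 CPM against 3.15. Neither was called between tumor types, and the part of these cells in the Saa3 level was not tested.

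The other members did not pass between sgTrp53+MYC and either other tumor type. The largest differences were those of Orm2, at −2.33 for FGF19+MYC minus sgTrp53+MYC (SE 1.22, 95% interval −4.88 to 0.23, adjusted p = 0.207), and of Saa1, at −1.56 (SE 1.12, adjusted p = 0.370). Hp and Apcs differed by 0.42 (SE 0.79) and −0.0044 (SE 0.59), with an edgeR adjusted p of 0.770 and 0.997, and 95% intervals of −1.24 to 2.07 and −1.23 to 1.23. Differences of several fold remained within these intervals.

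The spread between tumors of one group depended on the member, and for Saa1, Saa2, Orm1, Orm2 and Hp it was far above that between livers. The SD of log2 CPM within a tumor group was 2.57 to 3.00 for Saa1, 2.26 to 2.89 for Saa2, 1.73 to 3.04 for Orm1 and 1.97 to 2.83 for Orm2, larger than that of at least 98.5% of all genes tested. For Hp it was 1.46 to 1.68. Saa3 (1.05, 0.60 and 1.49 in Aldafermin+MYC, FGF19+MYC and sgTrp53+MYC) and Apcs (1.07, 0.65 and 1.37) also exceeded their livers (0.25 and 0.35). Itih4 was at 0.85, 1.05 and 0.39 against 0.22 in livers. The median SD over all genes was itself larger in tumors (0.40, 0.32 and 0.45) than in livers (0.25). Saa4 stood at the other end with 0.18 to 0.41, exceeding 17.9 to 50.9% of all genes, and in FGF19+MYC tumors it was below the 0.23 of the livers. Lcn2 in sgTrp53+MYC tumors (0.85) was also below its livers. In livers the SD was 0.19 to 0.38 for all members except Lcn2 (0.94).

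The high and low tumors were largely the same ones across members. After subtraction of group means, Aldafermin+MYC replicate 5 was above its group in 10 of 10 members and replicate 4 in 9, FGF19+MYC replicate 5 in 9 and sgTrp53+MYC replicate 1 in 9. Aldafermin+MYC replicates 1 and 3 were above in 0, and FGF19+MYC replicate 3 and sgTrp53+MYC replicate 4 in 1. The median deviation over members ran from −2.05 in sgTrp53+MYC replicate 4 to 1.95 in sgTrp53+MYC replicate 1. Over the 15 tumors, deviations of Saa1 correlated with those of Saa2 (Pearson r = 0.974), Hp (r = 0.926), Orm1 (r = 0.870) and Orm2 (r = 0.870), and those of Orm1 with Orm2 (r = 0.917) and Hp (r = 0.906). Saa3 was less close to Saa1, Saa2, Orm1, Orm2 and Hp, with r from 0.240 (Orm2) to 0.563 (Saa2). It had r = −0.066 to Itih4 and was nearest to Saa4 (r = 0.719). Saa4 (r from 0.385 to 0.618) and Itih4 (r from 0.446 to 0.616) were also less close to those genes, with ranges that overlapped that of Saa3. Apcs and Itih4 were unrelated (r = 0.020). These are descriptions over 15 libraries that share their scaling, with no test.

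**Figure D4:**
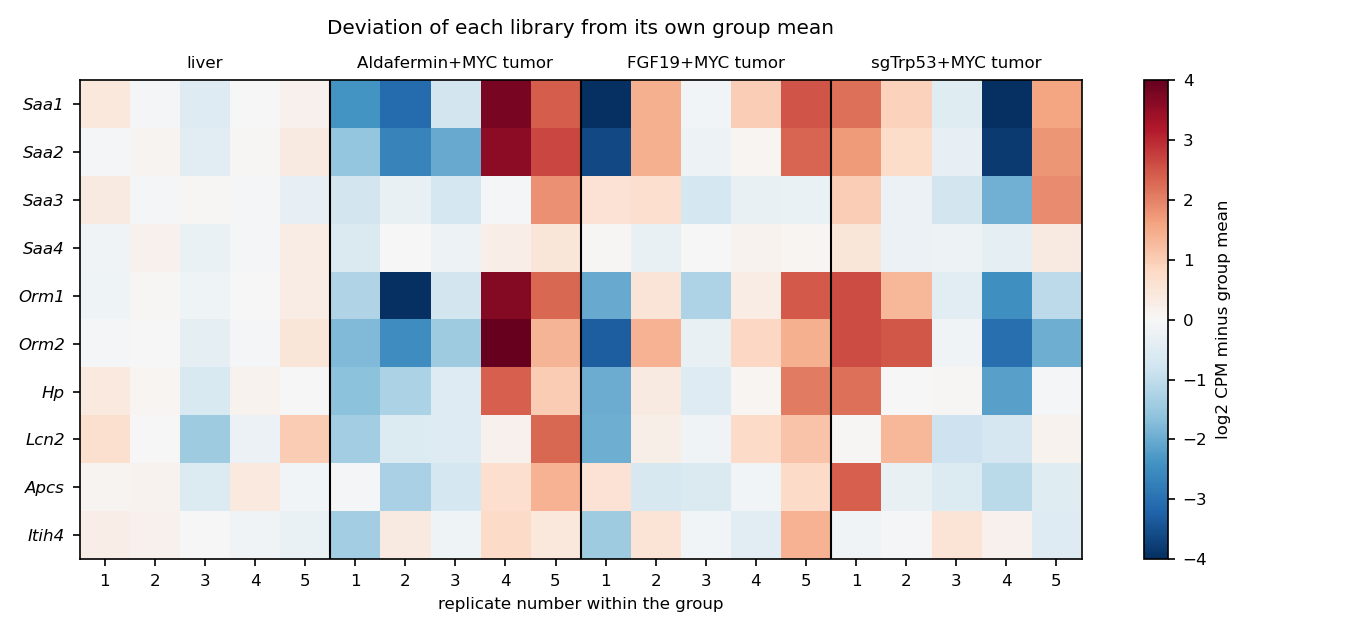
Deviation of log2 CPM from the group mean for each member (rows) in each of the 20 libraries (columns, by group and replicate number), with red above and blue below the group mean and the color scale ending at 4 in each direction. Saa1, Saa2, Orm1, Orm2 and Hp rise and fall together in most tumors. In sgTrp53+MYC replicate 5 they split, with Saa1 (1.59) and Saa2 (1.75) above the group mean and Orm1 (−1.06) and Orm2 (−1.96) below it. Saa4 hardly deviates, and the livers lie within 0.625 of 0 except for Lcn2.

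The summed hepatocyte markers moved with most of these deviations. Alb weighed heavily in this sum, at a mean of 7216, 8085 and 2440 CPM in Aldafermin+MYC, FGF19+MYC and sgTrp53+MYC tumors and 161258 in livers. It is also a negative acute phase gene, and the correlations without it were not tested. The sum was highest in Aldafermin+MYC replicate 4 (19197 CPM, against 6647 to 11187 in the rest of the group), FGF19+MYC replicate 5 (23243 CPM, against 5647 to 10689) and sgTrp53+MYC replicate 1 (10475 CPM, against 3602 to 5862). Over the 15 tumors, the centered log2 sum correlated with Hp (r = 0.838), Itih4 (r = 0.740), Orm1 (r = 0.734), Orm2 (r = 0.723), Saa1 (r = 0.658) and Saa2 (r = 0.642), and not with Saa3 (r = 0.000407). All tumors remained far below the livers in this sum, and the part of hepatocyte content in the members' spread was not tested. Other marker sums moved with members too. The proliferation sum correlated negatively with all 10, from r = −0.243 for Lcn2 to −0.610 for Hp. Apcs was closer to the adipocyte sum (r = 0.674) than to the hepatocyte sum (r = 0.553). Of the 7 adipocyte markers, however, 5 were at the floor in every tumor, which leaves Fabp4 and Cidec. Lcn2 was closer to the biliary and progenitor sum (r = 0.492) than to the hepatocyte sum (r = 0.447). That sum was 796 CPM in sgTrp53+MYC replicate 2 and at most 49.8 in the rest of its group. The same tumor was the highest of its group for Lcn2.

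Genes outside the list whose deviations were most like those of a member were mainly other hepatocyte products. For Orm1 they were Lrg1 (r = 0.960), a further acute phase glycoprotein, Fbp1 (r = 0.953), an enzyme of gluconeogenesis, and Apoc3 (r = 0.916). For Hp they were Apoc3 (r = 0.969), Apon (r = 0.953) and C4bp (r = 0.952), and for Saa1 they were Steap4 (r = 0.915), Apoc3 (r = 0.899) and Acsm1 (r = 0.888). Itih4 was most like Stap2 (r = 0.904), C4b (r = 0.893) and Pzp (r = 0.865), and Apcs was most like Pgrmc1 (r = 0.940), Mgst1 (r = 0.937) and Gm32461 (r = 0.931). Saa3 had neighbors of another kind: Gadd45b (r = 0.860), a stress-induced gene, 3110045C21Rik (r = 0.851) and Pdhx (r = 0.837). For Lcn2, Me1 (r = 0.843) and Mbnl3 (r = 0.810) were among the most alike. Over all 20 libraries without centering, where the difference between tumor and liver enters, Fbp1 (r = 0.980) came first for Orm1, Steap4 (r = 0.919) for Saa1, Pdhx (r = 0.878) for Saa3 and C4b (r = 0.971) for Itih4.

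The remaining acute phase genes fell with the members. Of 28 further positive acute phase genes, 24 were called lower than in liver in each tumor type, where 31.9, 32.9 and 33.0% of all genes were. The median log2 fold change of the 28 was −2.90, −2.84 and −3.53 for Aldafermin+MYC, FGF19+MYC and sgTrp53+MYC. Over all genes the median was 0.13, 0.06 and 0.07. Serpina3k, a serine protease inhibitor, differed by −5.48, −5.47 and −5.41 on the log2 scale (SE 1.75 each), and Hamp, the iron hormone hepcidin, by −4.37 (SE 0.92) in FGF19+MYC and −5.24 (SE 0.96) in sgTrp53+MYC tumors. Serpina3m fell by 5.58 (SE 1.24) in Aldafermin+MYC tumors. The exception of size was A2m, alpha-2-macroglobulin, at 228 ± 146, 54.0 ± 28.3 and 142 ± 60.7 CPM in the 3 tumor types against 0.115 ± 0.0793 CPM in livers (SD, n = 5 each), called higher in all 3 comparisons. In Aldafermin+MYC tumors the other 2 called higher were the metallothioneins Mt1 (0.78, SE 0.34, adjusted p = 0.0455) and Mt2 (1.08, SE 0.44, adjusted p = 0.0361), named after their values were seen. The 12 negative acute phase genes, whose proteins fall in inflammation, were called lower too, in 11, 12 and 12 cases, beside the same shares of all genes. Alb, albumin, differed by −4.48 (SE 0.57), −4.32 (SE 0.56) and −6.05 (SE 0.61). Transcripts of the proteins that rise and of those that fall in an acute phase response were thus both mostly lower in tumors than in livers.

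Between tumor types, some of these genes were lower in sgTrp53+MYC tumors, where Saa3 was highest. Of the positive acute phase genes 4 and 7 were higher in Aldafermin+MYC and in FGF19+MYC tumors than in sgTrp53+MYC tumors and 0 were lower, and of the negative ones 5 and 5 were higher and 0 lower. Over all genes 17.7 and 15.8% were called in either direction in these comparisons, and 7.78% were called lower in FGF19+MYC than in sgTrp53+MYC tumors. Beside the shares for either direction, 4 of 28 is no larger, whereas 7 of 28 and 5 of 12 are larger. No set test was run on these lists. Hpx, hemopexin, was higher by 1.35 (SE 0.38) and 1.32 (SE 0.38), Pltp, phospholipid transfer protein, by 1.42 (SE 0.29) and 1.33 (SE 0.29), Alb by 1.56 (SE 0.50) and 1.73 (SE 0.50), Apoa1 by 1.59 (SE 0.33) and 1.81 (SE 0.34) and Trf, transferrin, by 1.44 (SE 0.28) and 1.61 (SE 0.28). Among relatives of the members, Itih2 was higher by 0.76 (SE 0.25) and 0.83 (SE 0.25), whereas Itih4 was not called. Against livers Itih1 differed by −4.88, −4.58 and −5.74 on the log2 scale (SE 0.79, 0.78 and 0.83), and Orm3 averaged 0.115, 0.704 and 0.625 CPM in tumors against 6.33 ± 5.31 CPM in livers.

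The upstream pathway was measured too. Of 22 tested genes for cytokine receptors and for IL-6, IL-1 and TNF signalling, 15, 16 and 19 were lower than in liver and 0 were higher, where 31.9, 32.9 and 33.0% of all genes were called lower. The largest falls were in the receptor subunits Lifr (−4.07, −3.51 and −3.97 on the log2 scale), Il6ra (−2.97, −2.57 and −2.04) and Il1rap (−2.75, −2.84 and −2.13). Il1rap, the shared subunit of interleukin-1 receptors, was also lower in Aldafermin+MYC and FGF19+MYC than in sgTrp53+MYC tumors, by −0.62 (SE 0.15, adjusted p = 0.00838) and −0.72 (SE 0.15, adjusted p = 0.00368). Nfkbia, the inhibitor of NF-kappaB, was higher in FGF19+MYC than in sgTrp53+MYC tumors (0.77, SE 0.22, adjusted p = 0.0224). Of 10 inducing cytokines 4 passed the filter. Lif averaged 2.00, 3.93 and 2.82 CPM in the tumors against 0.0360 in livers, where no library held over 3 counts, and was called higher in each tumor type, although 1 sgTrp53+MYC tumor held most of that group's level. Ctf1, cardiotrophin 1, was lower than in livers by −1.76 (SE 0.31), −2.19 (SE 0.32) and −3.06 (SE 0.33), and higher in Aldafermin+MYC than in sgTrp53+MYC tumors (1.30, SE 0.31, adjusted p = 0.00713). Il1b was lower in FGF19+MYC tumors (−1.70, SE 0.74) and Il1a in sgTrp53+MYC tumors (−1.08, SE 0.43) than in livers. Il6, chosen after its values were seen, averaged 0.122, 0.0145 and 0.0416 CPM in the 3 tumor types and 0.0216 CPM in livers, below the filter.

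Receptors and partners of the members varied without a common direction. Of 10 tested, 3 were higher and 3 lower than in liver in Aldafermin+MYC, 2 and 2 in FGF19+MYC, and 1 and 4 in sgTrp53+MYC tumors, fewer in all than the 70.3, 69.7 and 69.9% of all genes called. Lrp2, megalin, which takes up lipocalin 2, averaged 8.87, 1.67 and 5.43 CPM in the 3 tumor types against 0.260 in livers and was called higher in all 3. Cd163, the haptoglobin-hemoglobin receptor of macrophages, was lower in Aldafermin+MYC (−3.59, SE 0.74) and sgTrp53+MYC tumors (−3.62, SE 0.73), and higher in FGF19+MYC than in sgTrp53+MYC tumors (2.28, SE 0.69, adjusted p = 0.0309). Fpr1, a formyl peptide receptor, was lower than in livers in all 3 types (−2.31, −1.77 and −3.55), and higher in FGF19+MYC than in sgTrp53+MYC tumors (1.78, SE 0.60, adjusted p = 0.0478). Hmox1, the heme-degrading enzyme, was higher than in sgTrp53+MYC tumors by 1.2 (SE 0.29) in Aldafermin+MYC and 0.97 (SE 0.29) in FGF19+MYC tumors, and Scarb1, a lipoprotein receptor that binds serum amyloid A, by 0.78 and 0.62 (SE 0.19 each). Between Aldafermin+MYC and FGF19+MYC tumors, 0 genes of any of these lists were called.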

How the data were processed

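RNA of 20 mice was extracted with RNeasy columns (Qiagen), made into stranded poly(A) libraries (TruSeq Stranded mRNA) and sequenced as paired ends. The authors aligned reads with HISAT2 to mm39 and counted them per RefSeq gene with htseq-count, so the deposited values are raw counts per gene, in 2 tables. bcl2fastq 2.20.0.422 is given in the submitters' processing notes. The 5 summary lines of each table were left out of library sizes. They held between 5.34 and 34.0% unaligned reads per library.

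Counts were fitted with edgeR 4.0.16 in R 4.3.3, with TMM factors, a filter that kept the 14333 genes reaching 1 CPM in 5 or more libraries, a model of the 4 groups, quasi-likelihood tests and Benjamini-Hochberg adjustment over all 14333 genes at 0.05. All adjusted p-values in the text are from this fit unless another tool is named. DESeq2 1.42.0, edgeR's likelihood ratio test, other scalings and filters, 2-group fits, a replicate block and leaving out each library were alternatives. CPM carry the TMM factors. Log2 CPM for spreads and correlations used a prior count of 2. Depth was 18004977 to 66354724 counts, and limits from 3 counts cover counting error only. Replicate libraries of a group differed by at least 13.94 times the counting variance. On data simulated for FGF19+MYC against sgTrp53+MYC over 14046 genes, the test found 39 of 100 genes changed by 1 on the log2 scale and 84 of 97 changed by 2, with 6 false calls. The changed genes were drawn at random, each with its own spread. Saa1, Saa2, Orm1 and Orm2 varied more within tumor groups than at least 98.5% of genes, so these rates do not carry over to them.

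The members and gene lists were chosen with earlier results of these data known. Named list genes came from a rule: per list and comparison, the 3 called genes with the largest absolute log2 fold change, or, between tumor types, all called genes where a list had at most 4, of which the text gives examples. Genes of likeness were the 3 with the highest Pearson r over the tumors, of which 1 is not reported here, and over all 20 libraries, of which the text gives the first for 4 members. Promoters came from RefSeq, and positions and transcripts from GRCm39 with GENCODE M39. Replicate numbers label different mice.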

Additional observations from a re-analysis of the deposited data

Results flagged for a closer look

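Gaps between libraries were taken on the scale of log2 CPM. Among 40 groups of 5 libraries (10 members in 4 groups), 3 held a library whose gap to its nearest neighbor exceeded the critical share of 0.71 of the group's range, where chance gives about 2. The levels below are in CPM. Saa3 in Aldafermin+MYC replicate 5 was 51.8 CPM, against at most 13.9 in the rest of its group. Saa4 in FGF19+MYC replicate 2 was 97.9 CPM, below 123 to 134 in the rest. Apcs in sgTrp53+MYC replicate 1 was 58.4 CPM, against at most 8.93 in the rest.

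Saa3 also differed between 2 tumor types, by a log2 difference of −1.93 for FGF19+MYC minus sgTrp53+MYC, equal to the difference of their changes from the same livers.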

How the results depend on the processing

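Of the members' values over 6 comparisons, the settings other than leaving out a library kept direction and call in 552 cases, lost the call in 8, gained it in 18 and turned the sign in 4. Leaving out 1 library did so in 540, 22, 8 and 30 cases. Between Aldafermin+MYC and sgTrp53+MYC tumors, DESeq2, the likelihood ratio test and library totals called 1 member (Saa3) where the main test called 0, and 0 to 1 were called without 1 library. Between FGF19+MYC and sgTrp53+MYC the call of Saa3 was lost, leaving 0, with only those 2 groups (adjusted p = 0.0718) and with the replicate block (adjusted p = 0.0576), and 0 to 1 were called without 1 library. Against livers, 8 to 10, 8 to 9 and 6 to 8 members were called without 1 library.

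Same-numbered libraries did not deviate together (r from −0.333 to 0.333), so the replicate block pairs only numbers. With the block, Lcn2 between Aldafermin+MYC and sgTrp53+MYC became −0.0027 and Apcs between FGF19+MYC and sgTrp53+MYC became 0.27. Apcs in the latter was 0.0395 with library totals, and between Aldafermin+MYC and sgTrp53+MYC −0.018 with no filter. Against livers the block lost Saa2 in sgTrp53+MYC (adjusted p = 0.0518), and gained Saa3 in FGF19+MYC (0.0407) and Lcn2 in sgTrp53+MYC (0.0334). No filter lost Saa2 in sgTrp53+MYC too (0.0764).

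Signs that turned without 1 library belonged to values within their error. Between Aldafermin+MYC and FGF19+MYC the log2 difference ran from −0.78 to 1.29 for Saa1, −0.14 to 1.75 for Saa2, −0.54 to 0.48 for Saa3, −0.47 to 1.91 for Orm1, −1.35 to 1.64 for Orm2, −1.59 to 0.29 for Hp, −0.51 to 0.92 for Lcn2 and −0.42 to 0.31 for Apcs. Between Aldafermin+MYC and sgTrp53+MYC it ran from −1.89 to 0.45 for Orm1, −1.17 to 0.80 for Hp, −0.76 to 0.90 for Lcn2 and −0.48 to 1.33 for Apcs. Between FGF19+MYC and sgTrp53+MYC it ran from −0.45 to 1.37 for Hp, −0.50 to 0.28 for Lcn2 and −0.24 to 1.25 for Apcs.

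Library totals without TMM factors moved the median of all genes against livers from 0.13, 0.06 and 0.07 to 0.97, 0.91 and 0.95. Members higher and lower were then 2 and 6 for Aldafermin+MYC (2 and 8 with TMM), 2 and 8 for FGF19+MYC (0 and 8) and 2 and 4 for sgTrp53+MYC (1 and 6). Orm1, Hp, Apcs and Itih4 kept their calls against livers under every alternative. The causes were not tested. Saa1, Saa2 and Orm2 rest on few counts in some tumors.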
